A study of Mus musculus with 14 samples.

Results

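The genes described here set how much cyclic AMP a cell holds: 6 phosphodiesterases, which break it down (Pde3b, Pde4a, Pde4b, Pde4d, Pde7a and Pde8a), and 4 adenylyl cyclases, which make it (Adcy3, Adcy6, Adcy7 and Adcy9). They were chosen by symbol, as the listed cAMP enzymes, with earlier results of these data known. They are 10 of the 24463 genes measured. RNA levels were read in 14 libraries of mouse leukemic stem cells (LSCs), each level given in FPKM, a count of fragments scaled to transcript length and library size. In every group the LSCs came from lineage-negative bone marrow cells transduced with p210 BCR-ABL, the fusion kinase of chronic myeloid leukemia, on 2 occasions 24 h apart. They were sorted 48 h after isolation as Lin- c-Kit+ Sca1+ GFP+ cells.

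The WT group (n = 3) came from control mice and was left untreated, and the dKO group (n = 3) came from mice deficient in Tcf1 (gene Tcf7) and Lef1, a pair of transcription factors that bind DNA and act with beta-catenin. LSCs from control marrow were treated for 6 h with DMSO, the solvent (n = 3), with PGE1 at 20 µM (n = 3) or with PGE2 at 20 µM (n = 2). Both prostaglandins are lipid signals, and PGE2 carries an additional double bond in its carboxylic side chain. Groups follow the sample titles; the genotype field calls dKO replicate 1 wild type and DMSO replicate 1 deficient. The sources used here do not give the driver of the deletions, the strain, the age of the mice or any pooling, and nothing says that replicates came from separate mice or cultures. The p-values therefore measure only how far these samples spread, which may be technical.

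Cyclic AMP is made by membrane cyclases when a receptor coupled to the stimulatory G protein Gs is engaged, and prostaglandin E receptors of the EP2 and EP4 type are of this kind. It acts through protein kinase A, Epac and the CREB family of transcription factors. Phosphodiesterases end the signal, and some of them are induced by cAMP itself, a feedback known from many tissues.

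Libraries held 31.3 to 33.8 M reads in untreated cells and 19.0 to 22.7 M in treated cells, as recovered from the steps of the FPKM values. In each library 132 to 5899 reads lay behind each of 9 enzymes. Pde4b had next to none. Tcf7 stood at 1.15 to 1.48 FPKM in WT and 0.0219 to 0.142 in dKO, and Lef1 at 0.223 to 0.319 and 0.105 to 0.184. In the libraries whose genotype field differs from the title, Tcf7 followed the title. It was at 0.142 FPKM in dKO replicate 1 and 1.03 in DMSO replicate 1. The sort markers Kit (20.8 to 48.5 FPKM) and Ly6a, which encodes Sca1 (2.86 to 17.8 FPKM), were present in all libraries. Over genes of 1000 to 10000 reads, variance within a replicate pair, divided by that of counting noise, was 1.92 to 2.60 in WT pairs and 1.81 in the PGE2 pair. It reached 7.99 and 8.27 for pairs with dKO replicate 1, 11.4 and 13.4 with DMSO replicate 1, and 27.9 and 28.5 with PGE1 replicate 2. The pairs without these libraries gave 4.10 in dKO, 1.72 in DMSO and 6.83 in PGE1, so dKO and PGE1 stayed above the WT pairs. Each of these 3 libraries stands apart within its group, and the values of called enzymes that rest on them are also given without them.

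Among the members in untreated WT LSCs, the cyclase RNA was mostly Adcy7, and the phosphodiesterase RNA was spread over Pde8a, Pde4a, Pde3b and Pde7a. Pde2a, a phosphodiesterase outside the members, was higher than each of these phosphodiesterases, at 9.04 FPKM on average in WT. Adcy7, a cyclase of the immune system and blood that responds to G protein beta-gamma subunits, was at 22.6, 23.3 and 22.7 FPKM in the 3 WT libraries, 77.7% of the summed cyclase level. Pde8a, a phosphodiesterase with very high affinity for cAMP, followed at 5.69, 5.49 and 5.63 FPKM. Pde4a, of the rolipram-sensitive PDE4 family, was at 5.27, 5.81 and 4.89 FPKM. The ranges of Pde8a and Pde4a overlap, so their order is not set by these libraries.

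Pde3b, whose enzyme is inhibited by cGMP, was at 3.35, 3.97 and 3.77 FPKM in WT. Pde7a, a cAMP-specific and rolipram-insensitive enzyme, was at 3.48, 3.73 and 3.37 FPKM, a range that overlaps that of Pde3b. Below them stood Adcy6, a cyclase inhibited by calcium, at 3.05, 2.72 and 2.79 FPKM. Next came Adcy3, a cyclase best known from olfactory neurons, at 2.25, 2.19 and 2.22 FPKM, and Pde4d, a second PDE4 enzyme, at 1.86, 1.97 and 2.03 FPKM. Adcy9, a widely expressed cyclase, was lowest of the 9 at 1.59, 1.45 and 1.45 FPKM. From Adcy6 downward no neighbours overlapped. Pde4b, which is abundant in many leukocytes, was at 0.0223 FPKM in WT replicate 1, 0.0331 in PGE1 replicate 1 and listed at 0 in the other 12 libraries, so it was in no test.

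**Figure D1:**
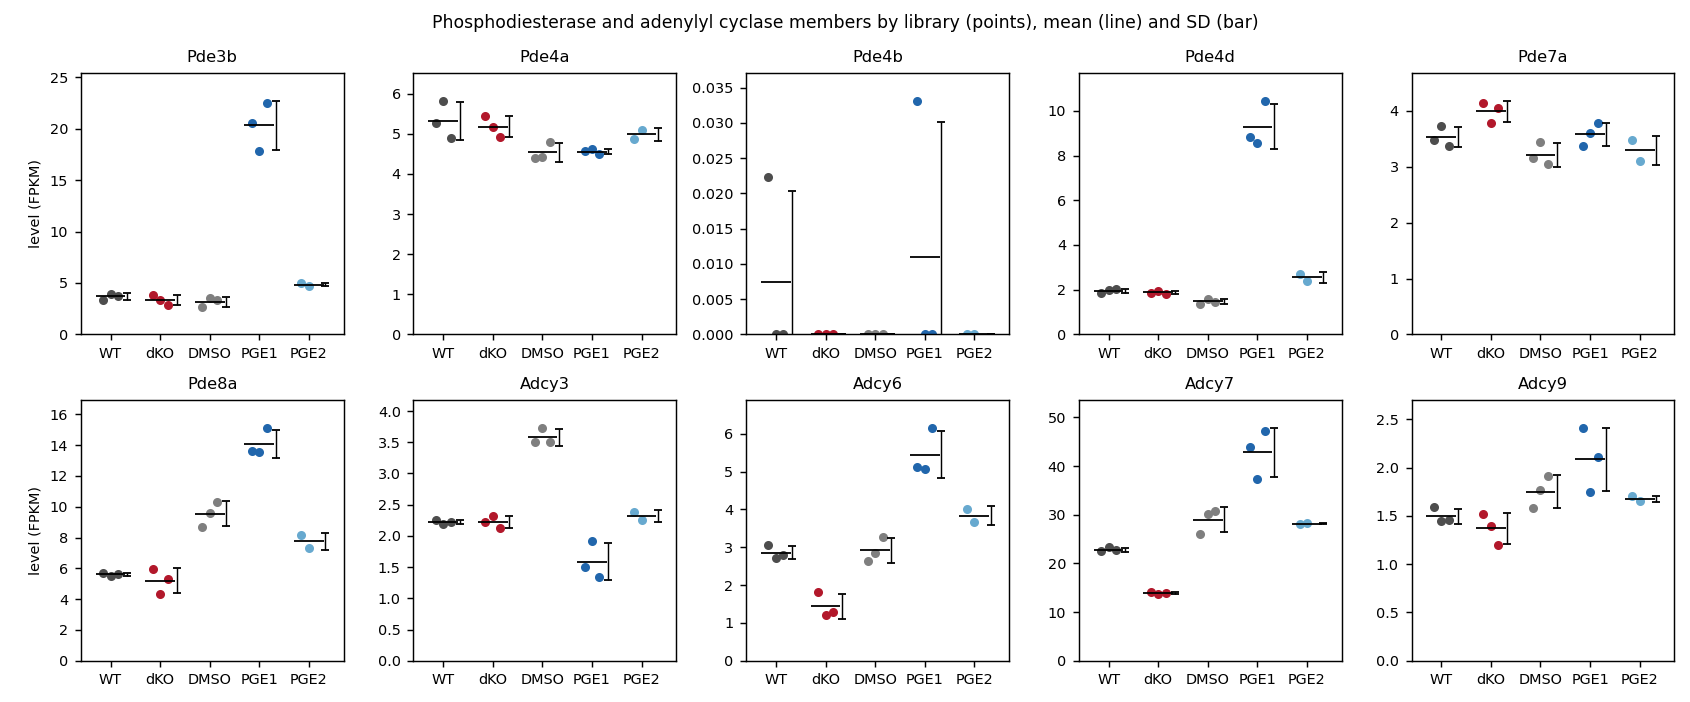
Level of each of the 10 enzymes (vertical axis, FPKM, each panel with its own scale from 0) in each library (points) of the 5 groups (horizontal axis), with the group mean (line) and SD (bar). Pde3b and Pde4d are far above all other groups in the 3 PGE1 libraries, Adcy6 and Adcy7 are lowest in dKO, and Adcy3 is highest in DMSO.

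With PGE1 for 6 h, RNA of Pde3b and Pde4d rose more than 6-fold over DMSO, Pde8a, Adcy6 and Adcy7 rose by less than 2-fold, and Adcy3 was 2.25-fold lower. Of the 9 enzymes tested, 5 rose and 1 fell by limma's moderated test on log2(FPKM + 1), at an adjusted p below 0.05 over 11242 genes. Among all genes tested 49.1% passed, 23.6% higher and 25.5% lower. The median log2 difference was 0.52 over the 9 enzymes and 0.01 over all genes. A rise of at least 2-fold on that scale was called in 2.31% of all genes and in 2 of the 9 enzymes.

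Pde3b was at 2.64, 3.51 and 3.32 FPKM in the 3 DMSO libraries and at 20.6, 17.8 and 22.5 in the 3 PGE1 libraries. The lowest PGE1 library was several times the highest DMSO library. Its mean went from 3.15 ± 0.455 (SD, n = 3) to 20.3 ± 2.36 FPKM (SD, n = 3), 6.44-fold. The log2 difference was 2.36 (SE 0.11, 95% interval 2.11 to 2.60, adjusted p = 1.53e-06), the 14th largest of the rises among 11242 genes. Without DMSO replicate 1 it was 2.27, and without PGE1 replicate 2 it was 2.44.

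Pde4d moved alongside it, from 1.36, 1.61 and 1.47 FPKM in DMSO to 8.83, 8.57 and 10.4 in PGE1. Here too the groups were far apart. The means were 1.48 ± 0.122 and 9.28 ± 1.005 FPKM (SD, n = 3 each), a 6.27-fold rise, with a log2 difference of 2.05 (SE 0.10, adjusted p = 1.53e-06) that ranked 28th among the rises. It was 2.01 without DMSO replicate 1 and 2.10 without PGE1 replicate 2. The other PDE4 enzyme that was measurable, Pde4a, had 4.39, 4.42 and 4.80 FPKM in DMSO against 4.56, 4.63 and 4.49 in PGE1. Its difference was 0.01 with a 95% interval of -0.15 to 0.17 (adjusted p = 0.945), an interval that lies wholly below the rise of Pde4d.

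Pde8a was at 8.70, 9.60 and 10.3 FPKM in DMSO and 13.6, 13.5 and 15.1 in PGE1, without overlap. This was a 1.48-fold rise (log2 difference 0.52, SE 0.08, adjusted p = 8.97e-04), with a difference of 0.46 without DMSO replicate 1 and 0.55 without PGE1 replicate 2. Pde7a had 3.16, 3.45 and 3.04 FPKM in DMSO and 3.36, 3.60 and 3.78 in PGE1. Those ranges overlap, and its log2 difference of 0.12 (95% interval -0.07 to 0.31) did not pass (adjusted p = 0.256).

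Among the cyclases, Adcy6 went from 2.63, 2.85 and 3.28 FPKM in DMSO to 5.12, 5.06 and 6.16 in PGE1. That is 1.87-fold, with a log2 difference of 0.72 (SE 0.10, adjusted p = 4.58e-04). Adcy7 went from 26.1, 30.1 and 30.7 to 44.0, 37.4 and 47.3 FPKM, 1.48-fold, with a log2 difference of 0.55 (SE 0.10, adjusted p = 0.00161). For both genes every PGE1 library lay above every DMSO library. Leaving out DMSO replicate 1 gave 0.66 for Adcy6 and 0.47 for Adcy7, and leaving out PGE1 replicate 2 gave 0.76 and 0.64.

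Adcy3 moved the other way, from 3.50, 3.74 and 3.50 FPKM in DMSO to 1.51, 1.91 and 1.35 in PGE1. The PGE1 mean was 2.25-fold lower, and the log2 difference of -0.83 (SE 0.10, 95% interval -1.05 to -0.60) passed at an adjusted p of 1.93e-04. It was -0.84 on leaving out DMSO replicate 1 and -0.92 on leaving out PGE1 replicate 2. Adcy9 had 1.58, 1.76 and 1.91 FPKM in DMSO and 2.40, 1.75 and 2.10 in PGE1. Its ranges overlap and its log2 difference of 0.16 (95% interval -0.08 to 0.40) did not pass (adjusted p = 0.227).

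**Figure D2:**
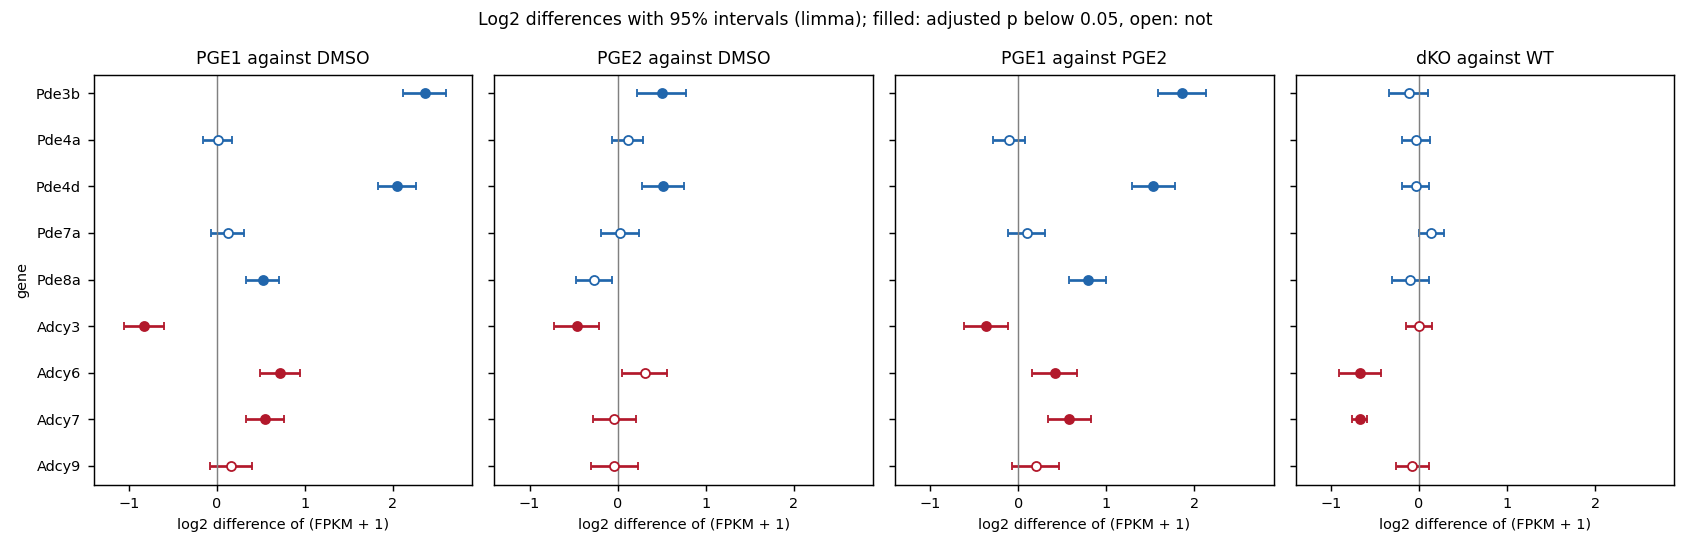
Differences of the 9 tested enzymes on the log2(FPKM + 1) scale (horizontal axis), with 95% intervals (bars). The panels show PGE1 against DMSO, PGE2 against DMSO, PGE1 against PGE2 and dKO against WT. Pde3b and Pde4d stand at 2.36 and 2.05 in PGE1 against DMSO and near 0.5 in PGE2 against DMSO, and Adcy6 and Adcy7 stand at -0.67 in dKO against WT.

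Cell type markers also differed between these groups. Of 11 neutrophil markers tested, 9 fell and none rose with PGE1, and the summed level of the neutrophil list was 4757 to 5665 FPKM in DMSO and 1850 to 2723 in PGE1. Of 9 mast cell and basophil markers 6 rose and 1 fell, with sums of 191 to 215 and 267 to 351 FPKM. All 3 eosinophil markers tested fell, the list sum going from 60.2 to 72.3 down to 2.39 to 23.8 FPKM. Ear1, too low to be tested, was at 0 in the PGE1 group and averaged only 0.214 FPKM in DMSO. In bulk RNA, fewer cells of a type and less RNA per cell cannot be told apart. The part of these markers in the enzymes' differences was not tested.

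With PGE2, given at the same dose and time, Pde3b and Pde4d rose by much less than with PGE1, and Adcy3 fell by less. Of the 9 enzymes, 2 rose and 1 fell, against 5.57% of all genes tested (0.996% higher and 4.57% lower). Pde3b was at 4.95 and 4.74 FPKM in the 2 PGE2 libraries and Pde4d at 2.72 and 2.38, each above all 3 DMSO libraries. The log2 differences were 0.50 for Pde3b (SE 0.12, 95% interval 0.22 to 0.77, adjusted p = 0.04995) and 0.52 for Pde4d (SE 0.11, 95% interval 0.27 to 0.76, adjusted p = 0.0275), which as ratios of means are 1.54-fold and 1.72-fold. Adcy3 was at 2.38 and 2.25 FPKM, below all DMSO libraries, with a log2 difference of -0.47 (SE 0.11, adjusted p = 0.0464).

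These 3 calls are close to the threshold. None was left when any 1 DMSO library or either PGE2 library was taken out, and 1 was left without PGE1 replicate 1, which is in neither group but enters through the shared estimate of spread and the set of genes tested. Adcy6, at 4.01 and 3.66 FPKM, lay above the DMSO libraries but did not pass (log2 difference 0.31, 95% interval 0.05 to 0.56, adjusted p = 0.164). Pde8a, at 8.15 and 7.34 FPKM, lay below them and did not pass either (-0.27, 95% interval -0.48 to -0.06, adjusted p = 0.139). The remaining 4 lay between -0.04 and 0.11 on the log2 scale. Their adjusted p-values were 0.460 for Pde4a, 0.910 for Pde7a, 0.892 for Adcy7 and 0.896 for Adcy9, with levels of 4.88 and 5.10, 3.48 and 3.11, 28.2 and 28.2, and 1.70 and 1.65 FPKM in that order.

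Set directly against PGE2, 1 test per enzyme, PGE1 gave higher levels of 5 enzymes and a lower level of 1, where 53.9% of all genes passed (27.2% higher, 26.7% lower). The difference was 1.86 for Pde3b (SE 0.12, adjusted p = 1.23e-05, 4.19-fold) and 1.53 for Pde4d (SE 0.11, adjusted p = 1.76e-05, 3.64-fold). A rise of at least 2-fold was called in 3.49% of all genes. Pde8a differed by 0.79 (SE 0.09, adjusted p = 1.56e-04) and Adcy7 by 0.58 (SE 0.11, adjusted p = 0.00187), and for both the PGE2 level was not above the DMSO mean. Adcy6 differed by 0.41 (adjusted p = 0.0130), a call lost without PGE2 replicate 2 (adjusted p = 0.0984).

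Adcy3 was 1.46-fold lower with PGE1 than with PGE2 (log2 difference -0.36, adjusted p = 0.0218). That call was lost without PGE1 replicate 3 (0.0550), PGE2 replicate 1 (0.123) or PGE2 replicate 2 (0.0793). No difference between the compounds passed for Pde4a (-0.11, 95% interval -0.29 to 0.07, adjusted p = 0.275), Pde7a (0.09, -0.12 to 0.30, adjusted p = 0.419) or Adcy9 (0.20, -0.07 to 0.46, adjusted p = 0.180). Those intervals allow differences of up to their bounds. With PGE1 replicate 2 left out, the 6 called differences between the compounds were 1.95 for Pde3b, 1.58 for Pde4d, 0.82 for Pde8a, 0.67 for Adcy7, 0.45 for Adcy6 and -0.45 for Adcy3, and each passed. The PGE1 and PGE2 contrasts against DMSO share their 3 DMSO libraries.

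Loss of Tcf1 and Lef1 was accompanied by lower RNA of a pair of cyclases and no called change in any phosphodiesterase among the members. Of the 9 enzymes tested, 0 rose and 2 fell, where 40.9% of 10721 genes passed (18.0% higher, 22.9% lower). By limma, 2 of the 9 had an unadjusted p below 0.05, both of them lower. Voom on the recovered reads called 2 as well. Of all genes called, 44.1% were higher, against 60.2% with quantile-normalized values and 56.2% with median-of-ratios scaling. The median log2 difference was -0.08 over the enzymes and -0.01 over all genes.

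Adcy7 was at 14.2, 13.8 and 13.8 FPKM in dKO against 22.6, 23.3 and 22.7 in WT, with no overlap. It was 1.64-fold lower, with a log2 difference of -0.67 (SE 0.04, 95% interval -0.76 to -0.59, adjusted p = 1.21e-05). Adcy6 was at 1.82, 1.21 and 1.28 FPKM in dKO against 3.05, 2.72 and 2.79 in WT, also apart. Its log2 difference was -0.67 (SE 0.10, 95% interval -0.91 to -0.43, adjusted p = 0.00192), and -0.45 after quantile normalization. Without dKO replicate 1 the differences were -0.69 for Adcy7 and -0.78 for Adcy6.

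Adcy3 had the same mean in both genotypes, with 2.23, 2.31 and 2.13 FPKM in dKO and a log2 difference of 0.00 (95% interval -0.14 to 0.15). Adcy9 had 1.52, 1.39 and 1.20 FPKM in dKO, overlapping WT (adjusted p = 0.479). Pde3b had 3.83, 3.32 and 2.88 FPKM (log2 difference -0.12, 95% interval -0.34 to 0.10, adjusted p = 0.347), and Pde4d had 1.86, 1.96 and 1.82 (adjusted p = 0.680). Pde4a had 5.44, 5.18 and 4.91 FPKM (adjusted p = 0.741), and Pde8a had 5.95, 4.36 and 5.31 (adjusted p = 0.426). All 4 overlapped their WT ranges. Pde7a was higher in each dKO library, at 4.13, 3.78 and 4.05 FPKM, yet its log2 difference of 0.14 did not pass (adjusted p = 0.102). It passed after quantile normalization (0.00417) or median-of-ratios scaling (0.0432). Adcy3 passed as higher after quantile normalization only (log2 difference 0.22, adjusted p = 0.0270).

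Beside these values, all 11 monocyte and macrophage markers were lower in dKO, the list sum being 817 to 851 FPKM in WT and 123 to 135 in dKO. All 10 megakaryocyte markers were lower as well, with sums of 243 to 265 and 58.8 to 114 FPKM. Ly6a averaged 11.3 FPKM in WT and 3.12 in dKO, and Kit 28.0 and 23.0. Their part in the lower cyclase levels was not tested.

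LSCs in DMSO culture also differed from untreated WT LSCs in several enzymes, 3 higher and 1 lower of 9 (background 56.6% of 11115 genes, 26.0% higher and 30.7% lower). Culture with DMSO, the experiment and the depth of sequencing cannot be told apart here. Pde8a was 1.70-fold higher in DMSO (log2 difference 0.67, SE 0.07, adjusted p = 8.96e-05) and Adcy3 1.61-fold higher (0.51, SE 0.06, adjusted p = 2.67e-04). Adcy7 was 1.27-fold higher (0.33, adjusted p = 0.00274). Pde4d was lower (-0.25, adjusted p = 0.0183), and did not pass on leaving out WT replicate 2 (0.0576) or 3 (0.0686). Without DMSO replicate 1 the 4 differences were 0.73 for Pde8a, 0.52 for Adcy3, 0.40 for Adcy7 and -0.22 for Pde4d, and each passed. Of 11 neutrophil markers tested 7 were lower and 3 higher in DMSO (list sum 7062 to 7414 FPKM in WT, 4757 to 5665 in DMSO), and all 3 eosinophil markers were lower (178 to 187 and 60.2 to 72.3 FPKM). Of 9 mast cell and basophil markers 6 were higher and 1 lower (145 to 148 and 191 to 215 FPKM). Their part in the enzymes' differences was not tested. The Adcy3 level was 1.59 ± 0.291 FPKM in PGE1 and 3.58 ± 0.136 in DMSO, and 2.22 ± 0.0277 in untreated WT (SD, n = 3 each). It was 2.32 ± 0.0932 FPKM in PGE2 (SD, n = 2).

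Summed over the members alone, the phosphodiesterases and the cyclases each had their own pattern. The 6 phosphodiesterases summed to 20.1 ± 0.746 FPKM in WT, 19.6 ± 1.42 in dKO, 21.9 ± 1.47 in DMSO, 51.8 ± 4.17 in PGE1 (SD, n = 3 each) and 23.4 ± 1.07 in PGE2 (n = 2). The 4 cyclases summed to 29.4 ± 0.282, 19.0 ± 0.706, 37.2 ± 3.02, 52.0 ± 5.47 and 36.0 ± 0.328 FPKM in the same order. The ratio of the phosphodiesterase to the cyclase sum was 0.684 in WT and 1.03 in dKO, 0.589 in DMSO, 0.999 in PGE1 and 0.650 in PGE2. In dKO the ratio moved with the lower cyclase sum, while in PGE1 both sums were higher than in DMSO. These sums are RNA per length and say nothing of enzyme activity. They leave out other phosphodiesterases, of which Pde2a averaged 9.04 FPKM in WT, 10.5 in dKO, 11.4 in DMSO and 14.5 in PGE1. Pde1b averaged 2.77, 0.548, 5.41 and 6.52 FPKM in the same order, and Pde7b 1.27, 0.133, 1.02 and 7.87. The ratios therefore hold for the listed members only.

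**Figure D3:**
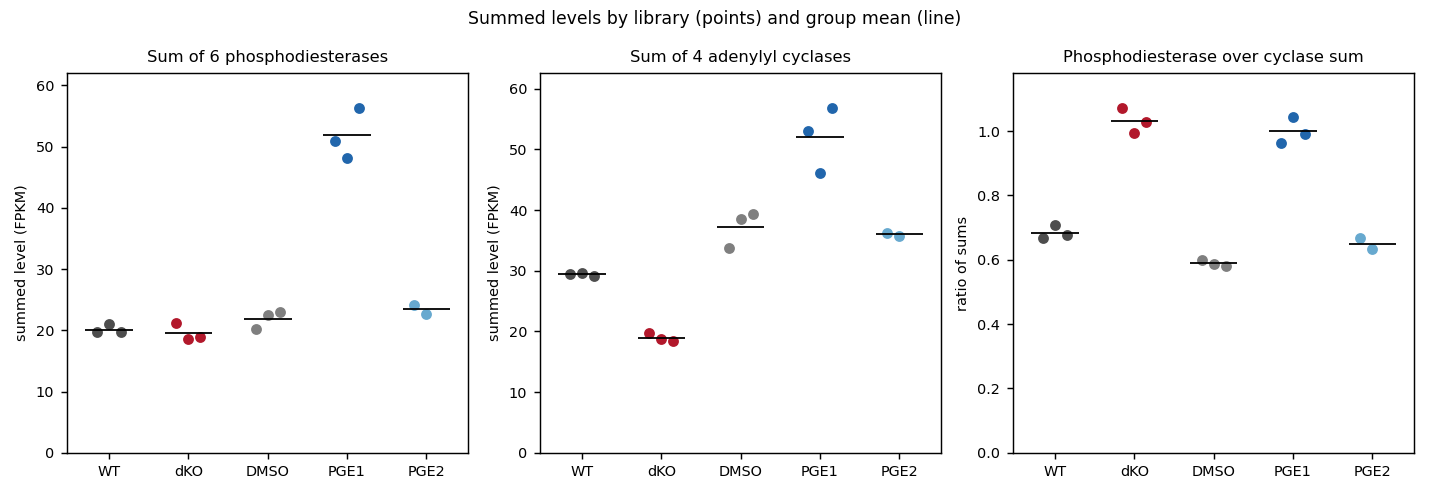
Summed FPKM of the 6 phosphodiesterases (left) and the 4 adenylyl cyclases (middle), and the ratio of the first sum to the second (right, no unit), for each library (points) with group means (lines). Every PGE1 library has a phosphodiesterase sum of at least 48.1 FPKM, and the ratio is near 1 in dKO and in PGE1.

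The makeup of the phosphodiesterase sum changed in PGE1. Pde3b made up 14.3% of it in DMSO and 39.1% in PGE1, and Pde4d 6.75% and 17.9%. Pde8a went from 43.5% to 27.2% although its own level rose, and Pde4a from 20.7% to 8.84% at a nearly constant level. Among cyclases Adcy7 held 73.5% to 82.4% of the sum in each of the 5 groups. In the order of levels within PGE1, Pde3b stood directly below Adcy7 and above Pde8a with no overlap, and Pde4d stood above Adcy6. Adcy3, the fourth in DMSO, was last of the 9 in PGE1, where its range overlapped that of Adcy9.

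Over the 14 libraries, the gene whose log2 level was most like that of Pde3b was Pde4d (Pearson r = 0.994). Stxbp5 (0.991), Cnnm2 (0.991), Epb41 (0.987) and Zbtb16 (0.987) followed. Stxbp5 averaged 15.4 FPKM in DMSO and 28.6 in PGE1, and Cnnm2 3.44 and 27.3. For Adcy7, whose range was set by both dKO and PGE1, the closest were Dstyk (0.991), Kctd12 (0.991), Taok2 (0.991), Atxn7 (0.991) and Slc29a3 (0.990). Kctd12 averaged 13.6 FPKM in dKO, 22.5 in WT, 32.6 in DMSO and 48.0 in PGE1. These are descriptions over libraries that share groups, depth and treatment.

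Of 24 other genes of the phosphodiesterase and cyclase families, 5 reached a mean of 1 FPKM in some group, all of them phosphodiesterase genes by name. Pde7b, the paralog of Pde7a, went from 0.910, 1.16 and 0.974 FPKM in DMSO to 7.50, 6.64 and 9.48 in PGE1, 7.75-fold (log2 difference 2.13, adjusted p = 4.74e-06), and by 2.09 without DMSO replicate 1 and 2.23 without PGE1 replicate 2. PGE2 gave 1.64 and 1.67 FPKM, a difference from DMSO that did not pass (adjusted p = 0.138) and that differed from PGE1 by 1.73 (adjusted p = 2.57e-05). In dKO it was at 0.124, 0.158 and 0.117 FPKM against 1.18, 1.36 and 1.28 in WT. It lay below the minimum level of the untreated fit, and an exact permutation test gave p = 0.1, the smallest that 3 against 3 allows.

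Pde1b, a calcium-dependent enzyme of both cyclic nucleotides, was at 0.744, 0.496 and 0.403 FPKM in dKO against 2.999, 2.79 and 2.54 in WT (log2 difference -1.29, adjusted p = 6.88e-05). Pde5a, specific for cGMP, was at 0.865, 0.571 and 0.539 against 2.03, 1.92 and 2.004 FPKM (-0.85, adjusted p = 3.98e-04). So both fell in dKO, with no overlap, beside Adcy6 and Adcy7. Without dKO replicate 1 their differences were -1.38 and -0.94. With PGE1, Pde1b did not pass (0.22, adjusted p = 0.162) and Pde5a did (0.39, adjusted p = 0.0333), a call lost on leaving out any 1 treated library except PGE1 replicate 2 (adjusted p 0.0519 to 0.112). Pde2a, which cGMP stimulates, was at 15.4, 13.9 and 14.1 FPKM in PGE1 against 11.5, 11.4 and 11.3 in DMSO (0.32, adjusted p = 0.00292; 0.33 without DMSO replicate 1 and 0.35 without PGE1 replicate 2). Pde6d encodes a prenyl-binding protein rather than an enzyme. It did not pass in PGE1 against DMSO (-0.04, adjusted p = 0.618) and was higher in PGE2 than in PGE1 (PGE1 against PGE2 -0.32, adjusted p = 0.00644, lost without PGE2 replicate 2, adjusted p = 0.0698).

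**Figure D4:**
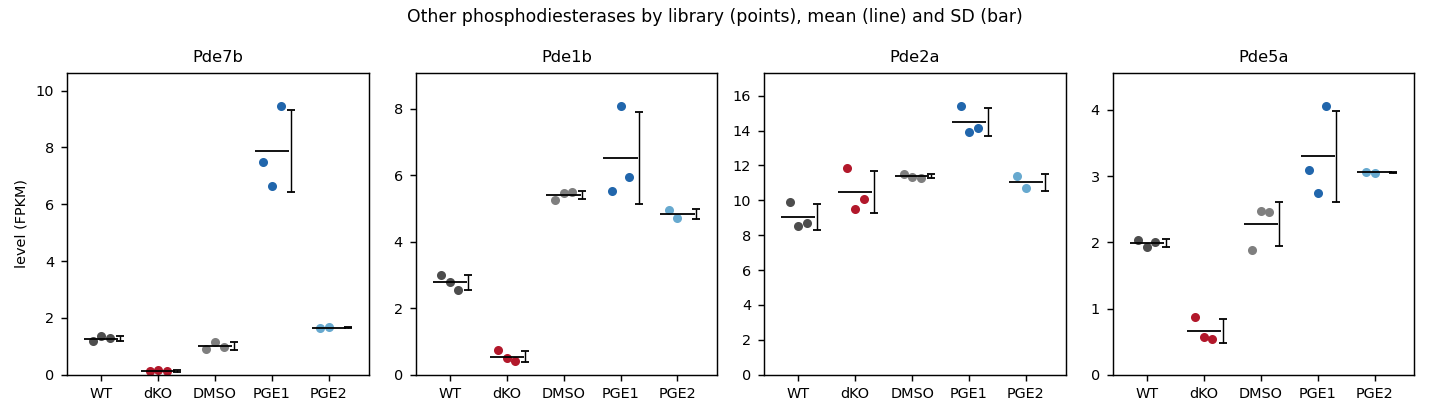
Levels of Pde7b, Pde1b, Pde2a and Pde5a (vertical axes, FPKM, from 0) in each library (points) by group, with mean (line) and SD (bar). Pde7b is at 6.64 FPKM or more in the PGE1 libraries and at 1.67 FPKM or less in all others, and Pde7b, Pde1b and Pde5a are lowest in dKO.

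Around these enzymes, genes for receptors and effectors of the pathway passed in both directions with PGE1, as genes did over the whole table (23.6% higher, 25.5% lower of all tested). Of 8 Gs-coupled receptors tested, 3 rose and 4 fell: Ptger2, the EP2 receptor for prostaglandin E, rose from 1.505 to 5.48 FPKM on average (log2 difference 1.37, adjusted p = 9.20e-06). Ptgir, the prostacyclin receptor, rose from 6.997 to 13.05 FPKM (0.81, adjusted p = 5.57e-05), and Adora2b, an adenosine receptor, fell from 7.40 to 1.63 FPKM (-1.68, adjusted p = 8.60e-06). Of 10 Gi-coupled receptors, which restrain cyclases, 4 rose and 5 fell, among them S1pr1 (2.15, adjusted p = 5.86e-07), Cxcr4 (0.78, adjusted p = 1.71e-05) and Ptger3, the EP3 receptor (-1.16, adjusted p = 1.57e-05). Of 13 G protein subunits 1 rose, Gng2 (0.39), and 1 fell, Gng12 (-0.33), and without PGE1 replicate 2 the falls were 3.

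Downstream of cAMP, 5 of 12 genes of protein kinase A, Epac and their anchors rose with PGE1 and 5 fell, beside 23.6% and 25.5% of all genes. The regulatory subunits Prkar2b (0.68, adjusted p = 3.34e-05) and Prkar1a (0.63, adjusted p = 8.72e-05) rose, and Prkar2a fell (-1.14, adjusted p = 1.85e-04). Of 8 CREB factors and coactivators 3 rose and none fell, and 5 rose without PGE1 replicate 2. Crem, which yields cAMP-inducible factors, rose from 4.18 to 27.8 FPKM (2.45, adjusted p = 4.81e-06), Crtc3 by 0.52 and Crtc2 by 0.28. Of 18 known cAMP-response targets 7 rose and 5 fell, with Thbd at 1.804, Dusp1 at -1.19 and Fosb at -6.00 on the log2 scale. Abcc5, a transporter that can export cyclic nucleotides, rose from 7.22 to 15.1 FPKM (0.95, adjusted p = 4.11e-04).

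With PGE2, where 5.57% of all genes passed against 49.1% with PGE1, fewer of these genes passed too. There was 1 rise and 3 falls among 8 Gs-coupled receptors, 1 rise among 10 Gi-coupled receptors, and 2 rises and 2 falls among 18 targets. By limma 0 passed among 13 G protein subunits (4 at an unadjusted p below 0.05), 12 kinase, Epac and anchor genes (0), 8 CREB genes (1) and 2 export genes (0). Set against PGE2, PGE1 gave 5 higher and 0 lower of the 8 CREB genes and 5 of each direction among the 12 kinase, Epac and anchor genes, where 27.2% of all genes were higher and 26.7% lower.

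In dKO, where 18.0% of all genes tested were called higher and 22.9% lower, the same lists gave the following counts. Of 7 Gs-coupled receptors 4 fell and none rose, including Calcrl (-1.10, adjusted p = 4.05e-05) and Adora2a (-0.76, adjusted p = 0.00165). Of 9 Gi-coupled receptors 6 fell and 1 rose, led by C5ar1 (-1.86, adjusted p = 1.95e-05), itself a marker of myeloid cells. Of 13 G protein subunits 5 fell and 1 rose, of 13 kinase, Epac and anchor genes 4 fell and 4 rose, of 7 CREB genes 1 fell, and of 16 targets 10 fell and 1 rose. With quantile-normalized values, under which most calls over all genes were higher, 3 Gs-coupled receptors fell and 1 rose, 5 Gi-coupled receptors fell and 2 rose, 6 G protein subunits fell, and 9 targets fell and 2 rose. Median-of-ratios scaling left those 4 counts as in the values above. Fosb (-6.32) and Fos (-5.09), both early-response genes, had the lowest p-values of the targets. Abcc5 fell too (-0.65, adjusted p = 0.00385). The monocyte and megakaryocyte marker sums given above moved with the same samples.

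Promoter sequence was at hand for 7 of the 10 enzymes, with 15 listed starts, from RefSeq on GRCm38.p6, a later build than the mm9 of the expression values. Pde3b, Pde7a and Adcy6 have no entry. The letters searched, on both strands, were the cAMP response element TGACGTCA, its half-site TGACG and the Tcf/Lef core CTTTGA. Of 32851 promoters of the same length in that table, 1.55% hold the full element, 17.8% the half-site and 13.8% the core. None of the 15 windows holds the full element. The 4 windows printed here, each the 250 bases before a start, belong to 2 enzymes that rose with PGE1 (Pde4d and Pde8a), 1 that fell (Adcy3) and 1 that rose with PGE1 and fell in dKO (Adcy7). Half-sites and cores are in capitals.
Pde4d, chr13:108653927-108654176, plus strand: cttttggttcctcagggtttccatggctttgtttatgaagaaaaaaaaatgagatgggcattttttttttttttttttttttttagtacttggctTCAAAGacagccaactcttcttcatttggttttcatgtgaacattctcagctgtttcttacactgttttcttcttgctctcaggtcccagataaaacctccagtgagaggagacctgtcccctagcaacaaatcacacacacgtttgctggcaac
Pde8a, chr7:81213015-81213264, plus strand: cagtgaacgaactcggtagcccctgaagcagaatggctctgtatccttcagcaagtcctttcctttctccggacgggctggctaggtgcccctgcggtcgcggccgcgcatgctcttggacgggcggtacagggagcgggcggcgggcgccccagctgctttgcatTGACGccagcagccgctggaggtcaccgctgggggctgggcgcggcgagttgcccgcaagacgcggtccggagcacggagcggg
Adcy3, chr12:4133147-4133396, plus strand, first of 2 starts: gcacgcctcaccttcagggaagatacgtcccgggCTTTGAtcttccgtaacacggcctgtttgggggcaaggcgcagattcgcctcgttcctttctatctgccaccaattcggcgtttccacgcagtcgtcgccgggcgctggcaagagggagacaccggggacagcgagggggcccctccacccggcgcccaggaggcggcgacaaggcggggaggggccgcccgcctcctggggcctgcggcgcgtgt
Adcy7, chr8:88282742-88282991, plus strand, first of 3 starts: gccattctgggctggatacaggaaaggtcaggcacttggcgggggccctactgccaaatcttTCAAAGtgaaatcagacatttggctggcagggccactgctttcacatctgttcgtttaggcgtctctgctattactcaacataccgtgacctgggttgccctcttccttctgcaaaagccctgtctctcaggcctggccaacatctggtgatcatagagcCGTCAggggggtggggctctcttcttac

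Pde4d and Adcy3 hold a core and no half-site, Pde8a a half-site and no core, and Adcy7 both. The first base of the match lies 155 bases before the start in Pde4d, 84 in Pde8a and 216 in Adcy3, and in Adcy7 28 for the half-site and 188 for the core. The windows of Adcy3 and Adcy7 were printed because they hold matches: the second start of Adcy3 and the other 2 starts of Adcy7 hold neither. Enzymes that passed in neither PGE1 nor dKO hold matches as well, Adcy9 both in 1 window and Pde4a in separate windows, as does Pde4b, which was at or near 0. A match of letters is a description of the sequence. Which start each transcript used in these cells was not analysed here.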

How the data were processed

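RNA of 14 libraries was sequenced. The authors deposited 1 FPKM value per gene symbol and library, made from mm9 alignments with CASAVA 1.8, TopHat and Cufflinks, per the submitters' processing notes; the sources used here do not give the annotation or strand handling. Near-identical genes may share reads. For every gene with values above 0 (19057 genes, 100%) the FPKM steps could be matched to whole reads, and so gave the depth. The read numbers are the smallest whole numbers that fit, which may be too low for genes of few reads. Pde4b had too few reads for a read number to be given. Intervals cover the spread between libraries.

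Groups follow the titles. Tests were two-sided limma 3.58.1 fits in R 4.3.3 (lmFit, eBayes with trend) on log2(FPKM + 1). Genes entered at 1 FPKM or more on average over the libraries fitted, with Benjamini-Hochberg adjustment over all of them and a threshold of 0.05. That scale understates changes of low genes, and folds are ratios of mean FPKM. Fits used 6 untreated libraries, 8 treated libraries (PGE2, with 2, shares their spread) and 6 control libraries (DMSO and WT). The script was tested on simulated data. Alternatives were another pseudocount, minimum levels, quantile and median-of-ratios scaling, voom on recovered reads, a robust prior, a replicate block, 1 fit over all 14 libraries and leaving out each library.

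The members and gene lists were chosen with earlier results of these data known. Named were all members, other phosphodiesterases and cyclases of at least 1 FPKM in any group, up to 3 called genes of lowest p per pathway list in PGE1 against DMSO or dKO against WT, and the 5 genes most correlated with the phosphodiesterase and the cyclase of widest range. One gene that this rule names is not reported here.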

Additional observations from a re-analysis of the deposited data

How the results depend on the processing

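All 6 enzymes called in PGE1 against DMSO, and Adcy6 and Adcy7 in dKO, kept their direction and passed under every alternative that kept them above the minimum level. Counts of enzymes called moved as follows. With a minimum of 5 FPKM they were 1 in dKO against WT (2 otherwise), 3 in PGE1 against DMSO (6), 1 in PGE2 against DMSO (3), 3 in PGE1 against PGE2 (6) and 2 in DMSO against WT (4), since fewer enzymes were tested. After quantile normalization they were 4 in dKO and 7 in DMSO against WT, and the cause was not tested. For PGE2 against DMSO 0 enzymes were called with no filter and 0 with the replicate block. Leaving out 1 library gave 2 to 2 enzymes in dKO, 6 to 6 in PGE1 against DMSO, 0 to 3 in PGE2 against DMSO, 4 to 6 in PGE1 against PGE2 and 3 to 5 in DMSO against WT. The genes called in PGE2 against DMSO, 626, were 269 with the replicate block, 1207 with 1 fit over all 14 libraries and 125 to 1218 on leaving out 1 library, the highest without PGE1 replicate 2. Voom on recovered reads called 4717 genes in dKO, 5700 in PGE1 and 779 in PGE2.

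No common pairing by replicate number was seen. The correlations of same-numbered deviations were 0.038, 0.117 and 0.0016 for dKO and WT, and -0.141, -0.249 and 0.253 for PGE1 and DMSO. With so few libraries per group, these values cannot exclude a shared batch or culture. With the replicate block 3972 genes were called in dKO, 5191 in PGE1 against DMSO, 5313 in PGE1 against PGE2 and 6175 in DMSO against WT, against 4381, 5515, 6057 and 6296 without it, and Adcy3 in PGE1 against PGE2 was lost (adjusted p = 0.0609).

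There were 27 sign changes, all of log2 differences that passed under neither setting. In dKO, quantile normalization gave 0.0718 for Pde3b, 0.116 for Pde4a, 0.175 for Pde4d, 0.0471 for Pde8a and 0.148 for Adcy9, and median-of-ratios scaling 0.00824 for Pde4a. Median-of-ratios scaling gave -0.000371 for Pde4a in PGE1 against DMSO. Quantile normalization gave 0.0266 for Adcy9 in PGE2 against DMSO and -0.0814 for Adcy6 in DMSO against WT. The replicate block gave 0.0219 for Adcy7 in PGE2 against DMSO and -0.0127 for Pde5a in PGE1 against PGE2. Leaving out 1 library gave ranges across 0 in dKO for Pde4a (-0.0817 to 0.0235), Pde8a (-0.183 to 0.00335) and Adcy3 (-0.0192 to 0.0216). It did so in PGE1 against DMSO for Pde4a (-0.0125 to 0.0410) and Pde6d (-0.0867 to 0.00884), and in PGE2 against DMSO for Pde7a (-0.0348 to 0.0881), Adcy7 (-0.107 to 0.00714) and Adcy9 (-0.0837 to 0.00492). The range for Pde5a in PGE1 against PGE2 was -0.0536 to 0.165, and for Adcy6 in DMSO against WT -0.0426 to 0.0761.

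The lowest of 9 enzymes had 132 reads in a library, and PGE2 has 2 libraries, which limits what its comparisons can resolve.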

Other observations

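Family genes under 1 FPKM in every group, 19 of the 24 outside the 10 enzymes, were in no test across all genes, and the following were picked after their values were seen. Pde3a, the paralog of Pde3b, was at 0.110, 0.136 and 0.10002 FPKM in DMSO and 0.186 and 0.262 in PGE2. In PGE1 it was listed at 0 in 2 libraries and at 0.0113 in the third, 1 read in all against 32 in DMSO. Adcy4, a cyclase of the same beta-gamma responsive class as Adcy7, was at 0.451, 0.441 and 0.468 FPKM in DMSO. It was at 0.120, 0.181 and 0.154 FPKM in PGE1 and at 0.203 and 0.186 in PGE2, so its libraries in both prostaglandins lay below those in DMSO. Against DMSO, exact permutation tests (two-sided) gave p = 0.1 for PGE1 for each of these 2 genes, the smallest that 3 against 3 can give. Ranges that do not overlap fix the p at this value, so it adds nothing to the levels printed. Pde10a, a dual-specificity enzyme, averaged 0.276 ± 0.0854 FPKM in DMSO and 0.546 ± 0.0674 in PGE1 (SD, n = 3 each), with 140 and 266 reads over the group. In untreated WT, Adcy4 averaged 0.147 FPKM and Pde3a 0.128, so the Adcy4 mean in PGE1 (0.152) was close to that of untreated WT and its DMSO mean (0.453) above both.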
